A study of Rattus norvegicus with 16 samples.

Results

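The genes described here encode the machinery by which a cell shows peptides to CD4+ T cells on MHC class II molecules. They are 8 of the 31038 genes in the expression tables, and they were chosen by name: RT1-Da, RT1-Db1, RT1-Ba, RT1-Bb, RT1-DMa, RT1-DMb, Cd74 and Ciita (RT1 is the name of the MHC of the rat). All 8 are listed in every library's table, some of them at 0 counts in purified cells. The question was whether Schwann cells or other cells of the nerve carry these transcripts before and after injury.

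RNA was sequenced from rat sciatic nerve in 16 libraries that form 8 groups of 2. They hold Schwann cells acutely purified from the nerve and whole nerve, each uncrushed or taken 3, 5 or 7 days post-crush, in rats of postnatal day 18 (the age at which the crush was made). Each pool of purified cells came from at least 10 nerves, only the segment distal to the crush was used, uncrushed nerves had no sham operation, and whole nerve RNA was taken without dissociation. Purification was by immunopanning, in which dissociated cells are passed over antibody-coated dishes: cells carrying CD45 or Thy1 were removed, and cells carrying O4, a surface antigen of the Schwann cell lineage, were kept.

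A class II molecule is a pair of an alpha and a beta chain that meets the invariant chain, encoded by Cd74, in the endoplasmic reticulum and is carried by it to endosomes. There the invariant chain is cut by proteases such as cathepsin S, and the DM molecule exchanges its last fragment for a peptide from engulfed material. Dendritic cells, B cells and macrophages are the cells known for this pathway, and in other cells, Schwann cells among them, interferon gamma can turn it on through the transactivator Ciita, which binds the RFX, CREB and NF-Y proteins on the promoters of class II genes.

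Promoters of class II genes are known for sequence elements called the X box and the Y box, and the stretch around the Y element is shown because such elements are what Ciita and its partner proteins, discussed below, act on. RefSeq start sites on the rat assembly GRCr8 were at hand for 6 of the 8 genes, and RT1-DMb and Ciita are therefore only named. A core of the X box, AGCAAC, and a core of the Y box, ATTGG, were searched for on both strands of the 250 bases before each start. The longer form TGATTGG, which contains ATTGG, was added after the sequences had been seen. In the lines that follow, read 5′ to 3′ on the strand of the gene, capitals mark AGCAAC and TGATTGG.
RT1-Da, chr20:4515314-4515378, plus strand: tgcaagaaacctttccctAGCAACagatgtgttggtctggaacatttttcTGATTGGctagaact
RT1-Db1, chr20:4560230-4560294, minus strand: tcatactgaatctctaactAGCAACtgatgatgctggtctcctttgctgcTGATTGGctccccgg
RT1-Ba, chr20:4576962-4577026, plus strand: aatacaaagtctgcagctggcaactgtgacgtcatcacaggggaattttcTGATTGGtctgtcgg
RT1-Bb, chr20:4604167-4604231, minus strand: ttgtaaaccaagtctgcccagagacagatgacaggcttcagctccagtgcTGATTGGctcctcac
RT1-DMa, chr20:4712387-4712451, minus strand: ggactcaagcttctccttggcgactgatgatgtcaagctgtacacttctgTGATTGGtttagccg

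The element TGATTGG stood on the strand of the gene in the 5 RT1 promoters printed, beginning 45 to 82 bases before the start, and Cd74, whose promoter is not printed, held it on neither strand. Of the 33469 rat promoters of the same length, 6.42% held it on either strand, a share given for description, since the element was picked from these sequences. The core AGCAAC was found in RT1-Da, RT1-Db1 and Cd74 and in 12.1% of all promoters, and these letters are not in the windows of RT1-Ba, RT1-Bb and RT1-DMa. The core ATTGG was found in all 6, in Cd74 only on the opposite strand, and in 34.0% of all promoters. In RT1-Da and RT1-Db1 the beginnings of AGCAAC and ATTGG lay 34 and 33 bases apart in the same order, an arrangement within 20 to 40 bases that 85 of all promoters held (0.254%). The 4 RT1 genes that encode the classical alpha and beta chains and RT1-DMa all lie on chromosome 20.

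Depth was 10555067 to 27562637 expected counts per library. Schwann cell markers fitted the labels: Sox10, a transcription factor of the lineage, was higher in purified cells at day 3 (log2 difference from whole nerve 1.28, with 24.5% of all genes tested higher), and 12 of 12 macrophage markers were lower there (32.8% of all genes were). Among the purified libraries, replicate 2 of day 3 stood apart, with summed macrophage markers at 18.11 FPKM (a level scaled by transcript length and library size, used here for all levels) against 4.27 to 12.16 in the other 7. Summed endothelial markers were at 4.09 FPKM in it and at 0.81 in its replicate. It was also the deepest library. For the class II genes at day 3 the comparisons are also given without it, and for some other genes where it ended a call. The protein product of Ptprc is CD45, which the panning used, so cells carrying it were selected against.

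The plot of the 8 genes by library gives their levels in FPKM. The log2 fold changes and their tests come from the expected counts with another scaling between libraries, so they need not equal ratios of FPKM.

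**Figure D1:**
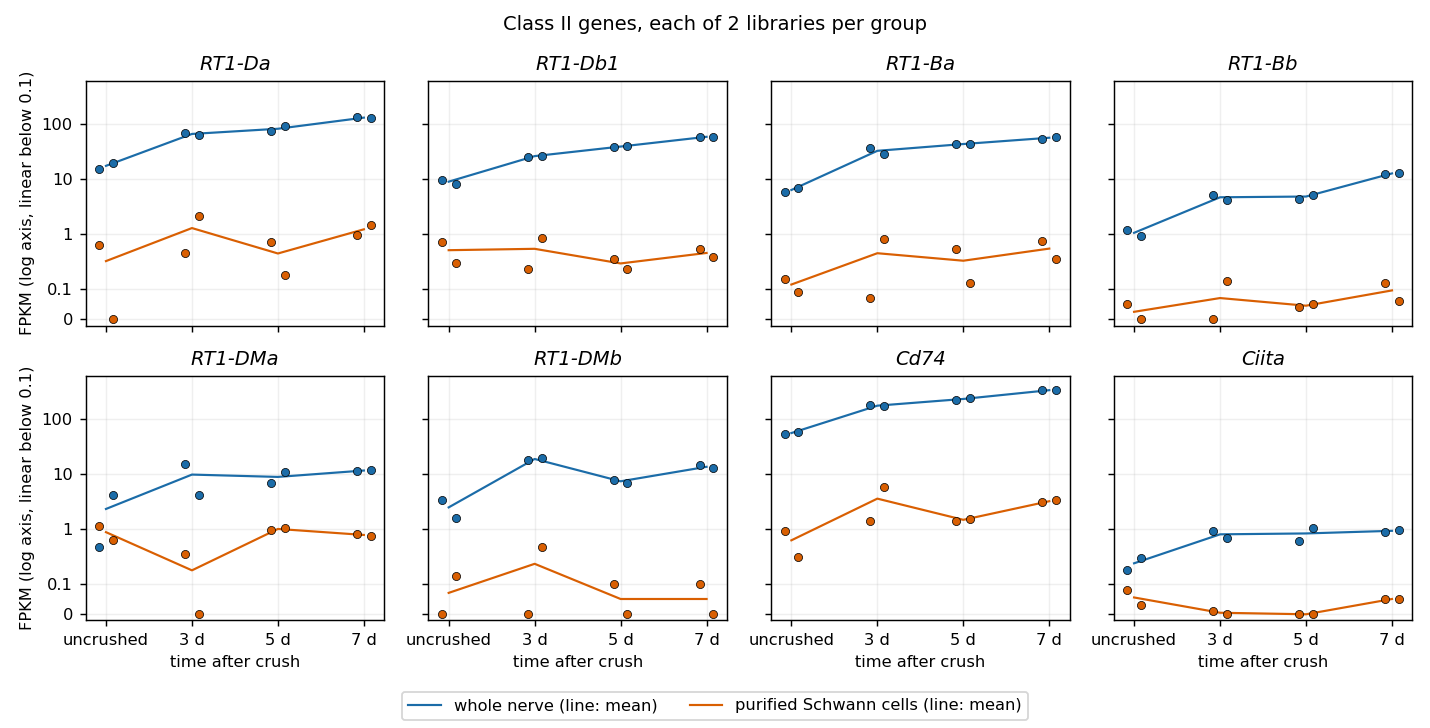
FPKM of each class II gene (log axis, linear below 0.1) at each time after crush, with 1 point per library and lines through the means of 2 libraries; blue is whole nerve and orange is purified Schwann cells. Whole nerve lies above purified Schwann cells in every panel, apart from RT1-DMa before crush, where the groups overlap, and Cd74 is the most abundant, reaching 330.57 FPKM in whole nerve at day 7.

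In whole nerve the class II genes rose after crush and most were highest at day 7. At day 3, 7 of 8 passed the test in the upward direction, beside 23.1% of all genes tested, and the same number passed at day 5 (18.9% of all genes) and day 7 (15.4%). The median log2 fold change of the 8 was 1.62 at day 3, 1.68 at day 5 and 2.23 at day 7, while the median of all genes was 0.00, -0.01 and 0.02. In bulk RNA, more cells of a type and more RNA per cell cannot be told apart. The p-values come from the quasi-likelihood test of edgeR with Benjamini-Hochberg adjustment and measure only the spread between pooled samples. An exact permutation test of 2 against 2 libraries could not go below p = 0.333.

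RT1-Da and RT1-Db1 encode the alpha and beta chains of the class II molecule known in the rat as RT1.D, the counterpart of human HLA-DR. RT1-Da was at 14.86 and 19.62 FPKM in the 2 uncrushed whole nerve libraries, at 69.36 and 61.69 at day 3, at 73.25 and 89.57 on day 5 and then at 131.40 and 127.96 on day 7. No uncrushed library overlapped a crushed one, and the groups at day 3 and day 5 stood close together. The log2 fold change against uncrushed was 1.53 ± 0.15 (SE) at day 3 and 2.51 ± 0.15 at day 7 (n = 2 and 2, edgeR adjusted p = 1.73e-05 and 1.26e-06).

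RT1-Db1 was at 9.57 and 8.21 FPKM before crush, at 25.33 and 26.47 at day 3, at 37.58 and 39.74 on day 5 and then at 58.02 and 58.20 on day 7. The 4 groups did not overlap and each was above the one before it. Its log2 fold change was 1.13 ± 0.11 (SE) at day 3, 1.70 ± 0.11 at day 5 and 2.29 ± 0.11 at day 7 (edgeR adjusted p = 2.22e-05, 1.46e-06 and 3.31e-07). A close relative, RT1-Db2, held 0 to 6 counts per library, and reads the pair share could be split between them, so both values are uncertain to that degree.

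RT1-Ba and RT1-Bb encode the chains of RT1.B, the counterpart of HLA-DQ. RT1-Ba was at 5.84 and 6.71 FPKM before crush, at 36.88 and 27.78 at day 3, at 42.79 and 43.12 on day 5 and then at 53.62 and 58.20 on day 7. Its log2 fold change was the largest of the 8 at day 5 (2.37 ± 0.17 SE, edgeR adjusted p = 2.18e-06). RT1-Bb was the lower of the pair, with 1.16 and 0.93 FPKM before crush, 5.17 and 4.08 at day 3, 4.36 and 5.18 on day 5 and then 12.45 and 12.66 on day 7. The days 3 and 5 overlapped for RT1-Bb and day 7 stood above both, and its log2 fold change at day 7 was the largest of the 8 (3.16 ± 0.24 SE, edgeR adjusted p = 4.80e-06). In FPKM the alpha chain RT1-Ba exceeded the beta chain RT1-Bb by 4.31 to 9.81 times over the 8 whole nerve libraries, and RT1-Da exceeded RT1-Db1 by 1.55 to 2.74 times.

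Cd74, the invariant chain, had the highest level of the 8 in every whole nerve library. It was at 51.84 and 57.75 FPKM before crush, at 174.40 and 170.28 at day 3, at 214.11 and 242.36 on day 5 and then at 330.57 and 328.54 on day 7. The 4 groups did not overlap. The log2 fold change was 1.2 ± 0.10 (SE) at day 3, 1.62 ± 0.10 at day 5 and 2.17 ± 0.10 at day 7 (edgeR adjusted p = 4.62e-06, 7.49e-07 and 2.00e-07). Its ratio to RT1-Da was steady among whole nerve libraries, between 2.51 and 3.49.

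RT1-DMa and RT1-DMb encode the chains of DM, the peptide exchanger. They were the members with expected counts that were not whole, which arise when reads are divided between records, so their levels depend on that division. RT1-DMb was at 3.32 and 1.56 FPKM before crush, at 17.70 and 19.33 at day 3, at 7.64 and 6.90 on day 5 and then at 14.22 and 12.46 on day 7. It was the gene of the 8 with the largest change at day 3 (log2 fold change 2.47 ± 0.26 SE, edgeR adjusted p = 2.83e-05), and the only one whose highest mean was at day 3 rather than day 7. RT1-DMa was at 0.47 and 4.10 FPKM before crush, at 15.10 and 4.16 at day 3, at 6.82 and 10.65 on day 5 and then at 11.13 and 11.70 on day 7. Its replicates lay far apart, and it was the gene that did not pass: the log2 fold change was 1.79 ± 0.75 (SE) at day 3 and 2.03 ± 0.75 at day 7 (edgeR adjusted p = 0.0742 and 0.0635). With no filter on low counts the fold change was 1.83, 1.68 and 2.06 at days 3, 5 and 7 and passed (edgeR adjusted p = 1.36e-10, 8.04e-09 and 7.25e-13). In the fit of all 16 libraries it passed at day 7 (2.10, edgeR adjusted p = 0.0457). Without replicate 2 of uncrushed whole nerve it was 3.85 at day 3 and 4.10 at day 7, and it passed (edgeR adjusted p = 0.00839 and 0.00900). In the other direction, RT1-DMa went down to 0.57 at day 3 without replicate 1 of day 3, and to 0.69 at day 5 and 1.07 at day 7 without replicate 1 of uncrushed whole nerve, none past the test. At day 5 it was 3.72 without replicate 2 of uncrushed whole nerve (edgeR adjusted p = 0.0134), and at day 3 it was 2.45 without replicate 2 of day 3 (edgeR adjusted p = 0.0201).

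Ciita, the transactivator, was the least abundant of the 8. It was at 0.18 and 0.29 FPKM in uncrushed whole nerve (19 and 18 counts), at 0.91 and 0.67 at day 3, at 0.60 and 1.04 on day 5 and then at 0.87 and 0.96 on day 7. All crushed libraries were above both uncrushed ones, and the crushed groups overlapped. The log2 fold change was 1.22 ± 0.34 (SE), 1.31 ± 0.34 and 1.5 ± 0.34 at days 3, 5 and 7 (edgeR adjusted p = 0.0142, 0.0123 and 0.00724). Without replicate 1 of uncrushed whole nerve it no longer passed at any of these days (log2 fold change 0.97, 1.07 and 1.257, edgeR adjusted p = 0.106, 0.0902 and 0.0625). The day 3 call of Ciita was also lost without replicate 1 of day 3 (1.01, edgeR adjusted p = 0.0845), and the day 5 call without replicate 2 of day 5 (0.89, edgeR adjusted p = 0.0998).

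Between day 3 and day 7 most class II genes of whole nerve rose further while most macrophage markers fell. Of the 8, 5 were higher at day 7 (9.85% of all genes were), namely RT1-Da, RT1-Db1, RT1-Ba, RT1-Bb and Cd74, and none was lower (RT1-DMb passed as lower when the fit held only the groups compared, at -0.46, edgeR adjusted p = 0.0496). The log2 fold change was 1.44 ± 0.19 (SE) for RT1-Bb, 1.16 ± 0.10 for RT1-Db1, 0.98 ± 0.14 for RT1-Da, 0.96 ± 0.10 for Cd74 and 0.79 ± 0.14 for RT1-Ba (edgeR adjusted p = 5.62e-04, 4.52e-05, 7.31e-04, 9.11e-05 and 0.00327). RT1-DMb, at -0.48, RT1-DMa, at 0.25, and Ciita, at 0.29, did not pass (edgeR adjusted p = 0.155, 0.815 and 0.530). In the same comparison 11 of 12 macrophage markers were lower, beside 11.4% of all genes, with a median of -0.73. Itgam, an integrin of myeloid cells, was at -1.03, Ptprc at -0.64 and Cd68, a lysosomal protein of macrophages, at -0.58. C1qa, a complement component named because it is the only marker that did not pass, was at -0.20 (edgeR adjusted p = 0.499).

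**Figure D2:**
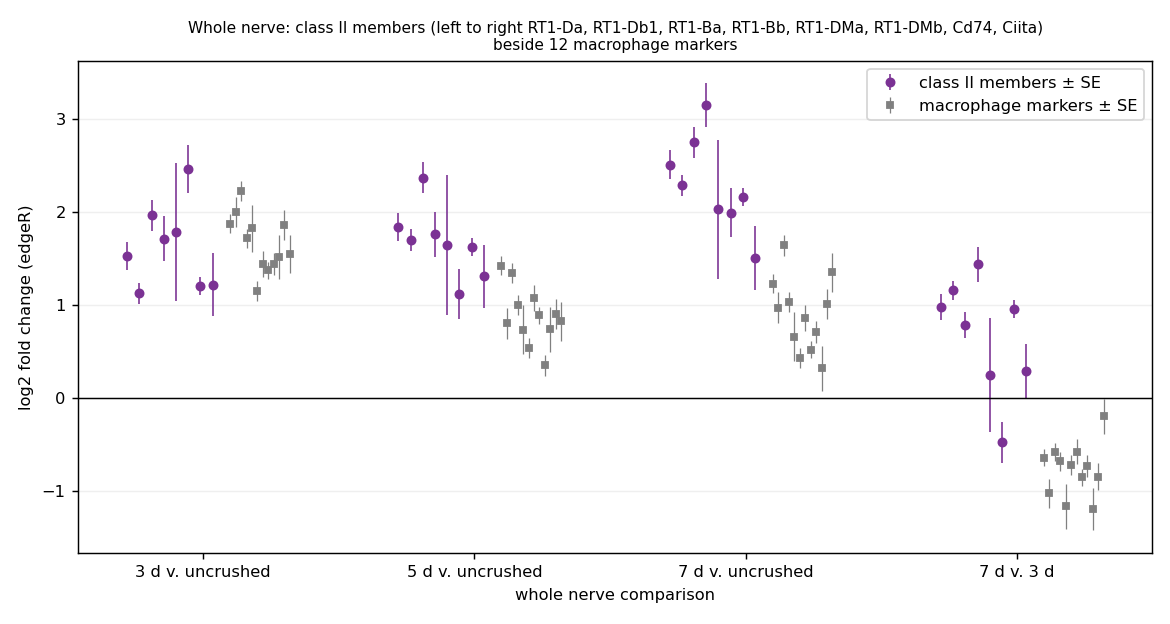
Log2 fold change in whole nerve for the 8 class II genes (purple circles) and 12 macrophage markers (grey squares) in 4 comparisons, with bars for the SE of the fit. At day 3 against uncrushed both sets lie between 1.13 and 2.47; at day 7 against day 3 the class II median is 0.87 and the macrophage median is -0.73.

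The relation of these 2 sets of transcripts to each other therefore changed with time. The summed FPKM of the 7 members other than Ciita, divided by the summed FPKM of the 12 macrophage markers, was 0.404 and 0.523 in uncrushed whole nerve and 0.423 and 0.375 at day 3. It was 0.743 and 0.909 on day 5 and then 1.19 and 1.21 on day 7. Uncrushed and day 3 overlapped, while day 5 stood above both and day 7 above day 5.

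Purified Schwann cells held few class II transcripts at any time. The summed FPKM of the 8 genes was 1.48 to 10.04 in the 8 purified libraries and 87.24 to 612.28 in the 8 whole nerve libraries. As counts, the 8 genes together had 21 to 288 per purified library and 1128 to 8727 per whole nerve library. For every member, the mean of each whole nerve group was above the mean of each Schwann cell group, in FPKM and in TPM (a similar scale with a fixed total per library).

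Cd74 was the only member with more than 20 counts in most purified libraries. It was at 0.92 and 0.31 FPKM in uncrushed Schwann cells (13 and 5 counts), at 1.37 and 5.67 at day 3 (24 and 165 counts), at 1.4 and 1.5 at day 5 (27 and 27) and at 3.05 and 3.27 at day 7 (61 and 42). Day 3 was spread widely by its replicate 2, and day 7 stood above uncrushed and day 5. Cd74 was the 1 member of the 5 tested that rose at day 3 in Schwann cells, beside 26.9% of all genes, and the same held at day 7, beside 25.0% (RT1-Bb, RT1-DMb and Ciita were too low to enter). Its log2 fold change was 2.58 ± 0.65 (SE) at day 3 and 2.30 ± 0.66 at day 7 (edgeR adjusted p = 0.00785 and 0.0169), and 1.17 ± 0.69 at day 5 (edgeR adjusted p = 0.173). At day 5 it passed with no filter on low counts (1.17, edgeR adjusted p = 0.0329) and ran from 0.71 to 1.89 without single libraries. Without replicate 2 of day 3 it was 1.23 at day 3 (edgeR adjusted p = 0.109), and without replicate 2 of uncrushed Schwann cells it was 2.11 (edgeR adjusted p = 0.0517). The day 7 call was lost without replicate 2 of uncrushed Schwann cells (log2 fold change 1.84, edgeR adjusted p = 0.0907) and without replicate 1 of day 7 (2.31, edgeR adjusted p = 0.0551).

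The chains of the classical molecules were near the floor. RT1-Da had 9 and 0 counts in uncrushed Schwann cells, 7 and 58 at day 3, 13 and 3 on day 5 and then 17 and 18 on day 7, or at most 2.11 FPKM. RT1-Db1 had 4 to 25 counts per purified library and RT1-Ba 1 to 21, with the highest value of each in replicate 2 of day 3. RT1-Bb had 0 to 5 counts, and a count of 0 allows up to 3. With the main settings none of the log2 fold changes of RT1-Da, RT1-Db1 and RT1-Ba in Schwann cells passed, and they ran from -0.84 to 2.09 (n = 2 and 2). With no filter on low counts, 2 of the 8 members were called higher at day 3 and 2 at day 7. Without replicate 2 of day 3 the day 3 values went from 2.05 to 0.47 for RT1-Da, from 0.21 to -1.06 for RT1-Db1 and from 2.01 to -0.71 for RT1-Ba, so 2 of the 3 signs turned. At day 5, 0 of 5 members tested passed with edgeR, beside 54.6% of all genes in either direction, 0 had an unadjusted p under 0.05, and 0 passed with DESeq2. From day 3 to day 7, 0 of 5 passed with edgeR, beside 21.0% of all genes, 1 had an unadjusted p under 0.05 (RT1-DMa), and 0 passed with DESeq2.

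The DM chains and Ciita were as low. RT1-DMa had 14 and 7 counts before crush, 5 and 0 at day 3, 16 and 15 on day 5 and then 13 and 8 on day 7, and its only 0 was in replicate 2 of day 3, the library that was highest for the other RT1 genes. Its log2 fold change at day 3 was -2.50 (edgeR adjusted p = 0.0589). It passed as lower with no filter and with at least 10 counts in every library of a group, and was -1.23 without replicate 2 of day 3 (edgeR adjusted p = 0.262). RT1-DMb had 0 counts in 4 of the 8 purified libraries and 14 in replicate 2 of day 3. Ciita had 7 and 2 counts before crush, 1 and 0 at day 3, 0 and 0 on day 5 and then 5 and 4 on day 7. None of its purified libraries exceeded 0.08 FPKM, where whole nerve was at 0.18 to 1.04.

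Set against whole nerve at the same time, 7 of 8 members were lower in purified Schwann cells before crush, beside 35.3% of all genes. All 8 were lower at day 3 (32.8% of all genes), day 5 (28.4%) and day 7 (28.7%). The median log2 difference of the 8 was -5.32, -5.74, -7.04 and -6.80 in that order, and that of all genes was between -0.11 and -0.03. At day 3 the 8 lay between -5.36 (RT1-Db1) and -7.11 (Ciita), and all 8 also passed without replicate 2 of day 3, when their median was -7.02. The member that did not pass before crush was RT1-DMa, at -1.60 (edgeR adjusted p = 0.141), where whole nerve was at 0.47 and 4.10 FPKM and Schwann cells at 1.11 and 0.62. With no filter on low counts its log2 difference was -1.59 and passed (edgeR adjusted p = 7.29e-04). It was -2.54 and passed without replicate 1 of uncrushed whole nerve (edgeR adjusted p = 0.0178), and it was 0.49 without replicate 2 (edgeR adjusted p = 0.732).

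The size of the gap differed between members. For Cd74, which had the most counts after crush, in counts scaled to library size, whole nerve exceeded Schwann cells 88.4-fold before crush (95% counting interval 55.7 to 149), 42.3-fold at day 3 (36.6 to 49.2), 161-fold at day 5 (123 to 214) and 105-fold at day 7 (86.5 to 129). The value before crush depended on the library: the fitted log2 difference was -7.51 without replicate 1 of uncrushed Schwann cells and -6.35 without replicate 2. Without replicate 2 of day 3 the gap at day 3 was 122-fold (81.6 to 189.8) for Cd74. For RT1-Da the gap was 43.9-fold at day 3 (34.3 to 57.0) and 148-fold without that library (72.0 to 369.7). RT1-DMa had a smaller gap than Cd74 at 3 of the 4 times, 2.23-fold before crush (1.303 to 3.93), 8.99-fold at day 5 (6.18 to 13.5) and 14.7-fold at day 7 (9.45 to 24.2), against 73.2-fold at day 3 (31.1 to 227), which was 26.7-fold (11.3 to 82.8) without replicate 2 of day 3. For Ciita the gap was 4.18-fold before crush (1.98 to 9.85) and 18.1-fold at day 7 (9.29 to 40.5). Its fitted log2 difference before crush ran from -3.41 to -1.85 when single libraries were left out. For Ciita at day 5, with 0 counts in both Schwann cell libraries, whole nerve was at least 55.9-fold higher, taking 3 counts over the group as the floor (the exact 95% interval began at 44.9), and at day 3, with 1 count, the ratio was 191 (33.9 to 7607) and 69.8 (12.4 to 2772) without replicate 2 of that day. These intervals cover counting error only, since the amplified reads carry no molecular identifiers.

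As a percent of the whole nerve FPKM, the Schwann cell level had a median over the 8 members of 2.63 before crush, 1.67 at day 3, 0.719 at day 5 and 0.946 at day 7. Over the 12 macrophage markers the medians were 3.38, 1.29, 1.55 and 1.45, and over the 9 Schwann cell markers they were 354, 227, 197 and 209. The ranges of the members and of the macrophage markers overlapped: at day 3 the members ran from 0.633 to 2.07% and the macrophage markers from 0.549 to 4.28%. At the other times some members lay above the highest macrophage marker. Before crush RT1-DMa was at 37.9% and Ciita at 23.4% (highest marker 17.2%), at day 5 RT1-DMa was at 11.3% (3.19%), and at day 7 RT1-DMa was at 6.75% and Ciita at 5.46% (3.60%). Fibroblast and endothelial markers had medians of 1.93 and 2.35% at day 3. Without replicate 2 of day 3 the day 3 medians were 0.733% for the members, 0.743% for macrophage markers, 0.986% for fibroblast markers and 1.11% for endothelial markers. How much of the class II RNA in purified cells came from carried-over cells was not tested.

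**Figure D3:**
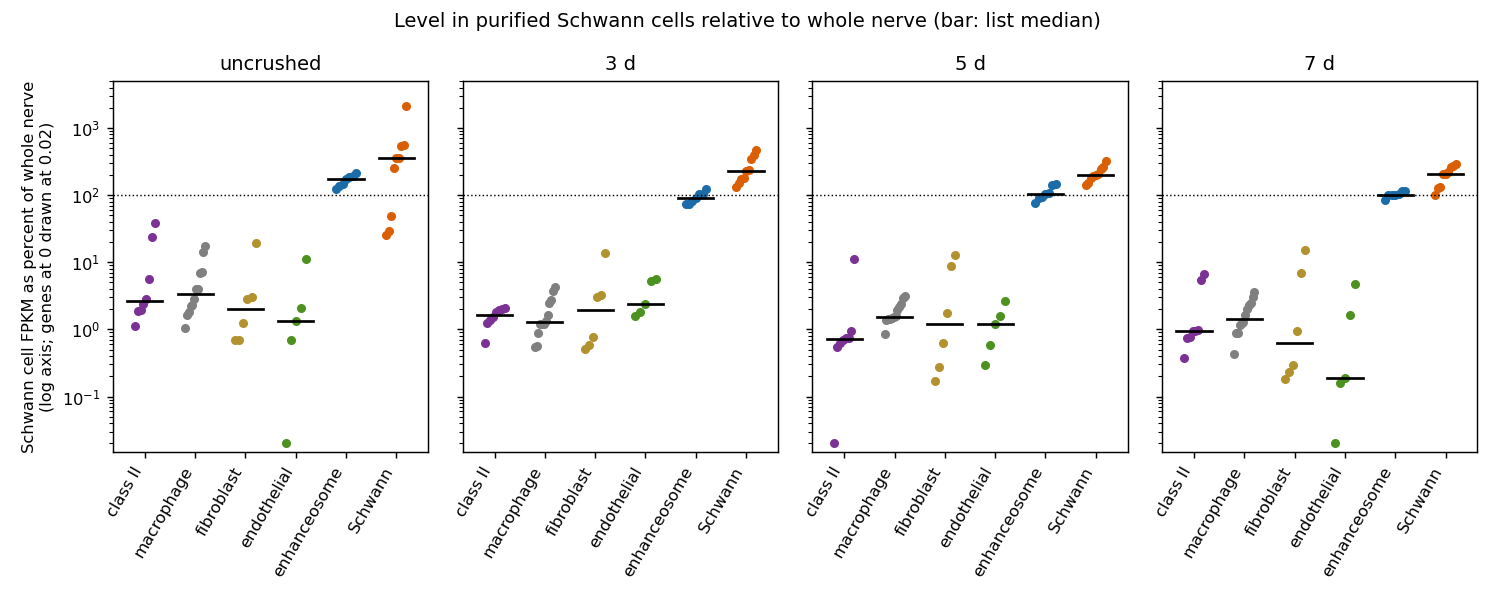
Schwann cell FPKM as a percent of whole nerve FPKM (log axis, dotted line at 100, genes at 0 drawn at 0.02) for each gene of 6 lists at 4 times, with bars at the list medians. At day 3 class II genes sit with macrophage, fibroblast and endothelial markers, with a median of 1.67%, and the genes for the proteins that Ciita binds (enhanceosome) have medians of 173% before crush and 90.7% at day 3.

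Within the purified libraries the library with the most macrophage RNA also had the most class II RNA. In replicate 2 of day 3 the summed class II FPKM (7 members without Ciita) was 10.04 and the macrophage sum 18.11, a ratio of 0.554, and in replicate 1 they were 2.46 and 4.27, a ratio of 0.576. The replicates of the other times did not all share a ratio: it was 0.429 and 0.237 before crush and 0.335 and 0.690 at day 5. The library with the next highest macrophage sum, 12.16 at day 5, had a class II sum of 4.07, below the 6.30 and 6.25 of day 7. At day 7 the ratio was 0.854 and 0.923, above the 0.237 to 0.690 of the other 6 purified libraries, as day 7 was also highest in whole nerve. Of the macrophage markers, all 12 had counts in 7 of the purified libraries and 10 in replicate 1 of day 3.

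**Figure D4:**
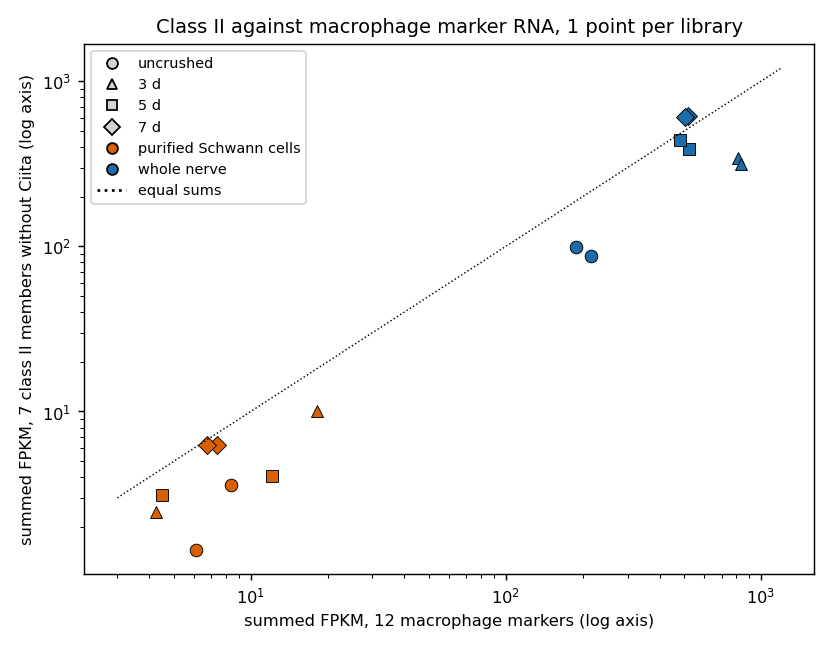
Summed FPKM of 7 class II genes against summed FPKM of 12 macrophage markers, both on log axes, with 1 point per library and a dotted line at equal sums; shapes give the time and colours the tissue. Purified Schwann cells lie at 1.45 to 10.04 on the class II axis and whole nerve at 87.06 to 611.41, and the day 7 points of whole nerve lie above the line of equal sums, at ratios of 1.19 and 1.21.

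The effect of injury itself differed between the tissues for 2 of 8 members at day 3 and at day 5 and for 1 at day 7, in each case with a negative difference, Schwann cells minus whole nerve (13.7%, 14.9% and 14.4% of all genes were lower). At day 3 these were RT1-DMa and Ciita, at day 5 RT1-Db1 and Ciita and at day 7 RT1-Db1. For RT1-DMa the log2 fold change was -2.50 in Schwann cells and 1.79 in whole nerve, opposite in sign, and neither passed by itself (edgeR adjusted p = 0.0589 and 0.0742). Its difference (-4.44, edgeR adjusted p = 0.0409) was lost under the replicate block, with only the groups compared and without any of 5 libraries (edgeR adjusted p = 0.0524 to 0.179), and the day 3 call of Ciita was lost without replicate 1 of uncrushed Schwann cells (edgeR adjusted p = 0.105). For RT1-Db1 the difference was -2.67 ± 0.63 (SE, log2) at day 5 and -2.62 ± 0.61 at day 7 (edgeR adjusted p = 0.00596 and 0.00577). Both were lost without replicate 1 of uncrushed Schwann cells. Its Schwann cell libraries held 4 to 11 counts at those times and before crush, while whole nerve rose. The fitted differences of Ciita, -4.72 and -6.86 (edgeR adjusted p = 0.00611 and 0.00252), rest on 0 or 1 count in Schwann cells and are no measure of size. For Cd74 the injury effect differed by 1.34 at day 3, -0.59 at day 5 and 0.01 at day 7, none past the test (edgeR adjusted p = 0.15, 0.633 and 1.00). At day 3 it passed with no filter on low counts (1.36, edgeR adjusted p = 2.50e-04), and it was -0.10 without replicate 2 of day 3 in Schwann cells and 1.90, past the test, without replicate 1 (edgeR adjusted p = 0.935 and 4.76e-04).

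Transcripts for the proteins that Ciita binds were detected in Schwann cells. Of 7 genes for the RFX, NF-Y and CREB proteins, 5 had a higher level in purified cells before crush (29.1% of all genes did), and none was lower. At day 3, 1 was higher and 1 lower (24.5% and 32.8% of all genes): Creb1 by 0.26 and Nfya by -0.40 (edgeR adjusted p = 0.0401 and 0.00802). Neither passed without replicate 2 of day 3 (0.28 and -0.34, edgeR adjusted p = 0.0931 and 0.0780), and at day 7 none of the 7 passed with edgeR. Rfx5, the DNA-binding subunit of RFX, was at 6.99 and 5.50 FPKM in uncrushed Schwann cells and 4.37 and 4.03 in whole nerve, and at day 3 at 4.01 and 3.35 against 4.82 and 5.04. In whole nerve at day 3, 2 of the 7 rose, beside 23.1% of all genes, with Nfyc the highest at 0.56 and Rfx5 the lowest at -0.21 (edgeR adjusted p = 0.00490 and 0.236). The element TGATTGG of the 5 RT1 promoters printed above contains ATTGG, the reverse complement of the CCAAT letters that NF-Y is known to bind.

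Of 12 genes for the processing and turnover of class II molecules, 10 had a lower level in purified cells at day 3 and 1 a higher level (32.8% and 24.5% of all genes). Ctss, cathepsin S, was the lowest at -6.28 (edgeR adjusted p = 5.16e-10), with 1.18 and 3.57 FPKM in Schwann cells at day 3 and 209.76 and 206.20 in whole nerve. Ctsd, a cathepsin of lysosomes in general, was the highest at 0.40 (edgeR adjusted p = 0.0259), with 200.76 and 212.73 against 178.66 and 144.20 FPKM, and without replicate 2 of day 3 it did not pass (0.35, edgeR adjusted p = 0.127). In whole nerve at day 3, 7 of the 12 rose and 2 fell (23.1% of all genes rose and 22.5% fell). They ran from Lgmn, the endosomal protease legumain, at 1.77 to Cst3, the protease inhibitor cystatin C, at -1.05 (edgeR adjusted p = 1.68e-07 and 5.87e-06). The median of this list as a percent of whole nerve was 34.2 at day 3.

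The other genes of the class II region were hardly expressed. RT1-DOa and RT1-DOb encode DO, a modulator of DM known mainly from B cells. RT1-DOa held 0 to 2 counts in uncrushed whole nerve and 13 to 23 after crush, and its log2 fold change at day 3 was 3.12 (edgeR adjusted p = 0.0131). RT1-DOb held 0 and 1 counts before crush and 4 to 25 after it, at 3.01 for day 3 (edgeR adjusted p = 0.0516). In Schwann cells the pair had 1 count in all. None of 6 B cell markers had enough counts to be tested.

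MHC class I genes present peptides to CD8+ T cells and are known from most cells. B2m, the light chain of class I, was at 962.72 and 799.18 FPKM in uncrushed Schwann cells and 1072.61 and 1054.03 at day 3, against 529.48 and 524.62, then 1306.01 and 1260.05, in whole nerve. Of 11 class I genes, 5 were higher and 2 lower in Schwann cells before crush (29.1% and 35.3% of all genes), and at day 3 5 were lower (32.8% of all genes), 4 without replicate 2 of that day, and none higher. At day 3 they ran from RT1-A1, a class I heavy chain, at -0.10 to Nlrc5, the class I transactivator, at -3.71 (edgeR adjusted p = 0.859 and 4.85e-04). In whole nerve at day 3, 8 of the 10 tested rose, beside 23.1% of all genes, with RT1-A2 at 1.33 and Tap1, the peptide transporter, at 0.16 (edgeR adjusted p = 6.66e-04 and 0.707). The class I genes share reads with close relatives and their values are uncertain.

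Interferon gamma itself was not detectable at this depth: Ifng had 1 count in 1 whole nerve library of day 7 and 0 in the other 15, which allows up to 3 counts in each. Among 10 genes of its pathway tested in whole nerve at day 3, 8 rose, beside 23.1% of all genes, and none fell. The largest log2 fold change was that of Irf8, a transcription factor of myeloid cells, at 2.62 (edgeR adjusted p = 9.13e-07). In Schwann cells against whole nerve at day 3, 3 were higher and 7 lower, beside 24.5% and 32.8% of all genes. Gbp2, an interferon-induced GTPase, was at 1.22 and Cxcl9, a chemokine induced by interferon gamma, at -7.18 (edgeR adjusted p = 6.36e-07 and 9.07e-08). In Schwann cells after crush, 1 of the 9 tested rose and 6 fell at day 3 (25.7% of all genes fell), and 5 fell without replicate 2 of day 3, when the fold change of Irf8 was -3.83, against -3.71 with that library, and no longer passed (edgeR adjusted p = 0.0608).

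Costimulatory genes encode the signals that T cells need besides the peptide, and they form 1 list here with checkpoint ligands, among them Cd274. Of 6 genes of this mixed list tested, 3 rose in whole nerve at day 3 and 1 fell (23.1% and 22.5% of all genes). They ran from Cd86, a ligand of CD28, at 2.13 to Icoslg, the ligand of ICOS, at -1.33 (edgeR adjusted p = 0.00171 and 7.90e-06). All 6 were lower in Schwann cells at day 3, beside 32.8% of all genes, between Cd80, the other CD28 ligand, at -0.83 and Icoslg at -4.92 (edgeR adjusted p = 0.00909 and 4.77e-07). Cd80 did not pass without replicate 2 of day 3 (-0.79, edgeR adjusted p = 0.0563).

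Markers of immune cells other than B cells, whose markers were too low to test, rose in part in whole nerve. Of all genes, 23.1% rose and 22.5% fell in whole nerve at day 3. Of 7 dendritic cell markers tested, 5 rose and 1 fell at day 3, from Flt3, a growth factor receptor of dendritic cell precursors, at 3.21 to Zbtb46, a transcription factor that endothelial cells also express, at -0.54 (edgeR adjusted p = 6.05e-05 and 0.0328). Of 7 T cell markers, 3 rose and none fell, from Cd8a at 2.77 to Cd3g, a chain of the T cell receptor complex, at -0.44 (edgeR adjusted p = 1.87e-04 and 0.414). The T cell marker with the highest level was Cd4, which rat macrophages also carry. Its mean in whole nerve at day 3 was 64.46 FPKM, beside 4.775 for Cd8a and 2 for Cd3g. All 12 macrophage markers rose, from Cd68 at 2.23 to the receptor Csf1r at 1.15 (edgeR adjusted p = 1.27e-07 and 1.06e-05). The summed FPKM in whole nerve ran from 188.90 to 836.47 for the macrophage markers, from 15.77 to 62.01 for the dendritic cell markers and from 0 to 0.47 for the B cell markers. From day 3 to day 7 the macrophage sum went from 813.47 and 836.47 to 515.56 and 502.81. The dendritic cell sum went from 62.01 and 61.54 to 41.65 and 36.10. Clec10a had the highest level of the dendritic cell markers, at a mean of 51.0 FPKM in whole nerve at day 3. The part of these cell types in the class II levels was not tested.

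In Schwann cells against whole nerve at day 3, 32.8% of all genes were lower and 24.5% higher. Of 7 dendritic cell markers, 5 were lower and 2 higher there, from Xcr1, a chemokine receptor, at -7.70 to Itgax, the integrin CD11c, at 1.55 (edgeR adjusted p = 1.99e-05 and 4.13e-04). Itgax was at 2.85 and 2.50 FPKM in Schwann cells at day 3 and at 0.05 and 0.04 before crush, a log2 fold change of 6.04 in Schwann cells (edgeR adjusted p = 5.98e-07). Of 7 T cell markers, 5 were lower, from Cd2, an adhesion receptor, at -6.70 to Cd3g at -0.67 (edgeR adjusted p = 0.00239 and 0.301). Of the 12 macrophage markers the difference was smallest for Cd14, a receptor for lipopolysaccharide, at -4.35 and largest for Cd163, a scavenger receptor, at -7.30 (edgeR adjusted p = 5.27e-07 and 1.12e-09).

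The genes whose pattern was most like that of the class II genes were sought over all genes, using the mean standardised log2 CPM (counts scaled to library size) of the 7 members other than Ciita. Over the 16 libraries the 5 with the highest Pearson r were C6 (0.989), C2 (0.988), Clec4a3 (0.988), Ctse (0.987) and Adap2 (0.987). C6 and C2 are complement components, and Clec4a3 is a lectin receptor. The 16 points fall into the 2 tissues, so r can come largely from the difference between them, and that share was not measured. Over the 8 whole nerve libraries alone the 5 were Il7r (0.997), the receptor for interleukin 7, Serping1 (0.990), the C1 inhibitor, Steap4 (0.989), Bdnf (0.989), a neurotrophin, and Tead2 (0.988). There Cd4, a coreceptor that rat macrophages also carry, had an r of 0.972, Cd68 of 0.839, Ptprc of 0.806 and Itgam of 0.628. These values describe likeness over libraries that share time and depth.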

How the data were processed

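RNA-seq of 8 Schwann cell and 8 whole nerve libraries was analysed, grouped by the labels. According to the methods and processing notes, the authors amplified the cDNA, aligned reads with STAR to Rnor_6.0 and estimated abundance with RSEM. The deposited expected counts are unnormalized estimates per gene, the deposited FPKM is scaled by effective length and library, and the deposited TPM is the same estimate scaled to a fixed total. The strand setting of the counting is not given in the sources used here. The deposited matrix of the series held the same expected counts (largest difference 0). A deposited table of the authors' module calls, with FPKM from Cufflinks, was not used. The number of sample columns left unused was 0.

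Expected counts were rounded and tested with edgeR 4.0.16 (glmQLFit and glmQLFTest, TMM, filterByExpr, R 4.3.3), with Benjamini-Hochberg adjustment over all genes tested and a threshold of 0.05. Each tissue was fitted on its 8 libraries (14961 genes tested in Schwann cells, 15831 in whole nerve), and comparisons between tissues and of injury effects were fitted on all 16 (16829 genes). The SE was taken as the size of the log2 fold change over the root of the F statistic. Levels, sums and ratios use FPKM, and ratios of summed CPM carry exact 95% intervals. The fit was also run on simulated counts with planted changes, as a check of the code only. Python 3.11.15, pandas 2.3.3 and matplotlib 3.10.9 were used for tables and plots, and DESeq2 1.42.0 for an alternative.

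The members and the 15 gene lists (123 genes, all matched, 3 by an older symbol) were chosen with earlier results of these data known. Besides the 8 members, the genes named are those with the largest and smallest log2 fold change of each list in whole nerve at day 3 and between tissues at day 3, the markers Ptprc, Cd68, Itgam and Sox10, and the 5 most alike genes. Some genes that this rule names are not reported here. C1qa, B2m, RT1-Db2, Ifng, Cd4, Clec10a, Cd274, and in the observations Irf1, Tap1 and Cxcl10, were named after their values were seen. Replicate numbers did not pair the samples: deviations from group means correlated between -0.0552 and 0.0758 over 28 pairs of groups. No pair of replicates agreed within sampling noise (chi-square per degree of freedom 8.06 to 27.7). Alternatives were DESeq2, upper quartile normalization, other filters on low counts, a replicate block, other sets of libraries, TPM, and leaving out each library. Promoters came from RefSeq on GRCr8, and no coordinate of Rnor_6.0 was used or converted.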

Additional observations from a re-analysis of the deposited data

Results flagged for a closer look

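The effect of injury differed between the tissues for 3 genes at 1 or more days, by the test of the difference itself in edgeR, and each was lower in Schwann cells. By day these were 2, 2 and 1 of the 8 members at days 3, 5 and 7, beside 13.7%, 14.9% and 14.4% of all genes. For RT1-Db1 the difference (log2) was -2.67 at day 5 and -2.62 at day 7 (edgeR adjusted p = 0.00596 and 0.00577). Both RT1-Db1 calls were lost without replicate 1 of uncrushed Schwann cells, at -1.89 and -1.83 (edgeR adjusted p = 0.175 and 0.186), a library with 11 counts of the gene.

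For Ciita the difference was -4.72 at day 3 and -6.86 at day 5 (edgeR adjusted p = 0.00611 and 0.00252). Ciita had 7 and 2 counts in uncrushed Schwann cells and 0 or 1 in each library of days 3 and 5, so these fitted values depend on the prior count. Without replicate 1 of uncrushed Schwann cells the day 3 difference of Ciita was -3.70 (edgeR adjusted p = 0.105).

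For RT1-DMa the difference was -4.44 at day 3 (edgeR adjusted p = 0.0409). This call was lost under the replicate block, in the fit of only the groups compared (-4.34, edgeR adjusted p = 0.116) and without any of 5 libraries (edgeR adjusted p = 0.0524 to 0.179). Without replicate 2 of day 3 in Schwann cells, which had 0 counts of RT1-DMa, it was -3.11 (edgeR adjusted p = 0.168).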

How the results depend on the processing

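In whole nerve, 7 members passed at days 3, 5 and 7 and 6 to 8 under every alternative, and the Schwann cell to whole nerve counts of 7 to 8 kept within 7 to 8. The Schwann cell counts did not hold. Against 1 higher at day 3 there were 3 with no filter (2 higher, RT1-DMa lower), 2 with at least 10 counts in every library of a group (1 higher, RT1-DMa lower), 3 in the fit of all 16 libraries (2 higher, Ciita lower) and 0 to 2 without each replicate. Against 0 at day 5 there were 2 with no filter (Cd74 higher, Ciita lower) and 1 in the fit of 16 (Ciita lower). Against 1 at day 7 there were 2 with no filter and 0 to 2 without each replicate, and against 0 from day 3 to day 7 there was 1 in the fit of 16 and 0 to 1 without each replicate. For the difference in injury effect, day 3 gave 2, but 1 with the replicate block, 1 with only the groups compared and 0 to 3 without each replicate. Day 5 gave 1 to 2 without each replicate, and day 7 gave 1, but 2 with no filter and 0 to 2 without each replicate. The block changed no other count of calls. The cause was not tested.

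Among the values followed here, which in Schwann cells over time are those of Cd74 alone, signs turned in 9, none past the threshold in the reversed setting. Cd74 in Schwann cells from day 3 to day 7 ran from -0.90 to 1.09 (without replicate 2 of day 3) when single libraries were left out. RT1-DMa ran from -0.42 (without replicate 2 of day 3) to 1.46 in whole nerve from day 3 to day 7, and from -2.54 to 0.49 (without replicate 2 of uncrushed whole nerve) between tissues before crush. The Cd74 injury difference ran from -0.10 (without replicate 2 of day 3) to 2.08 at day 3 and from -1.02 to 0.14 (without replicate 1 of uncrushed Schwann cells) at day 5. At day 7 it was -0.00735 with no filter and ran from -0.42 to 0.74 without single libraries, with -0.0835 and -0.00238 for 2 of them. The median percent of whole nerve moved to 2.35 to 4.25 before crush, 0.733 to 2.78 at day 3, 0.449 to 0.883 at day 5 and 0.823 to 0.980 at day 7 without single Schwann cell libraries, and to 1.19 at day 7 with TPM. Of the values for single genes, 785 kept direction and call, 20 lost a call and 14 gained one. Depth limits RT1-Bb, RT1-DMb and Ciita in Schwann cells, at 0 to 14 counts.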

Other observations

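Some interferon-responsive genes, picked after their values were seen, were high in uncrushed Schwann cells, and others were not. Irf1, an interferon-induced transcription factor, was at 110.28 and 93.37 FPKM in uncrushed Schwann cells and at 3.28 and 2.81 in uncrushed whole nerve, a log2 difference of 4.74 (edgeR adjusted p = 4.98e-11), and at 8.60 and 7.77 in Schwann cells at day 3. Tap1 was at 10.37 and 7.62 FPKM in uncrushed Schwann cells, 1.08 and 0.65 in uncrushed whole nerve and 0.79 and 1.45 in Schwann cells at day 3. Cxcl10, a chemokine induced by interferons, was at 41.34 and 28.58 FPKM in uncrushed Schwann cells, 7.31 and 2.40 in whole nerve and 5.98 and 6.80 in Schwann cells at day 3. Cd274, the checkpoint ligand PD-L1, fell in Schwann cells by 2.46 on the log2 scale at day 3, from 7.44 and 4.10 to 0.67 and 1.28 FPKM, and its mean before crush was 5.77 FPKM in Schwann cells and 4.55 in whole nerve. In contrast, Cxcl9 had a mean of 0.51 FPKM in uncrushed Schwann cells and 4.83 in uncrushed whole nerve. Gbp2 had a mean of 65.0 FPKM in uncrushed Schwann cells and 261 at day 3. The same uncrushed libraries had 7 and 2 counts of Ciita and 13 and 5 of Cd74. Purified cells passed through dissociation and panning, which whole nerve did not, and the part of handling was not tested. The dissociated nerve that the study mentions was not analysed here.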
